A study of Mus musculus with 70 samples.

Results

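The expression of 10 genes that mark oligodendrocyte precursors, their lineage and newly forming oligodendrocytes was examined in the dorsal hippocampus of 70 adult male mice. The genes were chosen by symbol, out of 24346 genes with a value, and 12994 of those had a mean of at least 1 FPKM (fragments scaled to transcript length and to the mapped reads of the library) and were tested. All 10 passed that minimum. They are Pdgfra and Cspg4 (precursor surface proteins), Olig1, Olig2, Sox10 and Nkx2-2 (lineage transcription factors), and Gpr17, Enpp6, Bcas1 and Tcf7l2 (genes of cells that are becoming oligodendrocytes). C57BL/6J mice fell into 7 groups of 10, and 5 mice of each group came from each of 2 harvest cohorts. A home cage group had neither exercise nor training. Every other group received a 3-min object location memory (OLM) training session, and the tissue was taken 1 h later. The session was too short by design to form a long-term memory in sedentary mice. Exercise is written as days of initial voluntary wheel running, days of sedentary delay and days of reactivating running, so that the sedentary group is 0-0-0 and the exercise groups are 0-0-2, 14-14-0, 14-7-2, 14-7-0 and 14-0-0. Each library came from bulk tissue, in which fewer cells of a type and less RNA per cell cannot be told apart.

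Oligodendrocyte precursors are dividing glial cells spread through the grey and white matter of the adult brain. Growth factor acting on the receptor PDGFRα keeps them in the precursor state, and the transcription factors OLIG1, OLIG2, SOX10 and NKX2-2 hold them in the lineage and drive differentiation. Cells that leave the precursor state pass through a short stage marked by GPR17, ENPP6 and BCAS1 before they make myelin. The comparisons here ask whether the RNA of these stages differed between exercise patterns, and whether it moved apart from the genes of mature myelin.

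Several libraries stood apart before any comparison was made. The library labelled sedentary replicate 6 listed Neurod6, a transcription factor gene of hippocampal pyramidal neurons, at 2.45 FPKM, against 78.4 to 269 FPKM in the other 69 libraries. All 10 of the hippocampal neuron genes examined were below the median of the other sedentary libraries there, and all 17 mature myelin genes were above it, by a median of 1.22 on the log2 scale. That library also held the highest sedentary value of all 10 lineage genes, and the highest of all 70 libraries for 8 of them. The library labelled 14-7-0 replicate 4 had 10279 genes listed at 0, against 6243 to 7199 in the others. The library labelled 14-7-2 replicate 3 was above the median of its group for all 9 thalamic genes tested. High thalamic levels were not particular to it. The highest summed level of the 9 was 332 FPKM in sedentary, 220 in 14-14-0, 186 in 0-0-2 and 162 in 14-7-2. In sedentary replicate 6, 5 of the 9 were above the median of the other sedentary libraries. The thalamic gene Prkcd was at 90.9 FPKM there, the highest of all libraries. Some results on the 10 genes and the myelin counts are also given without the libraries that stood apart. Differences of single genes outside the 10 are given with all libraries kept. The sum of FPKM per library lay between 382574 and 469206, and these values hold no read depth.

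**Figure D1:**
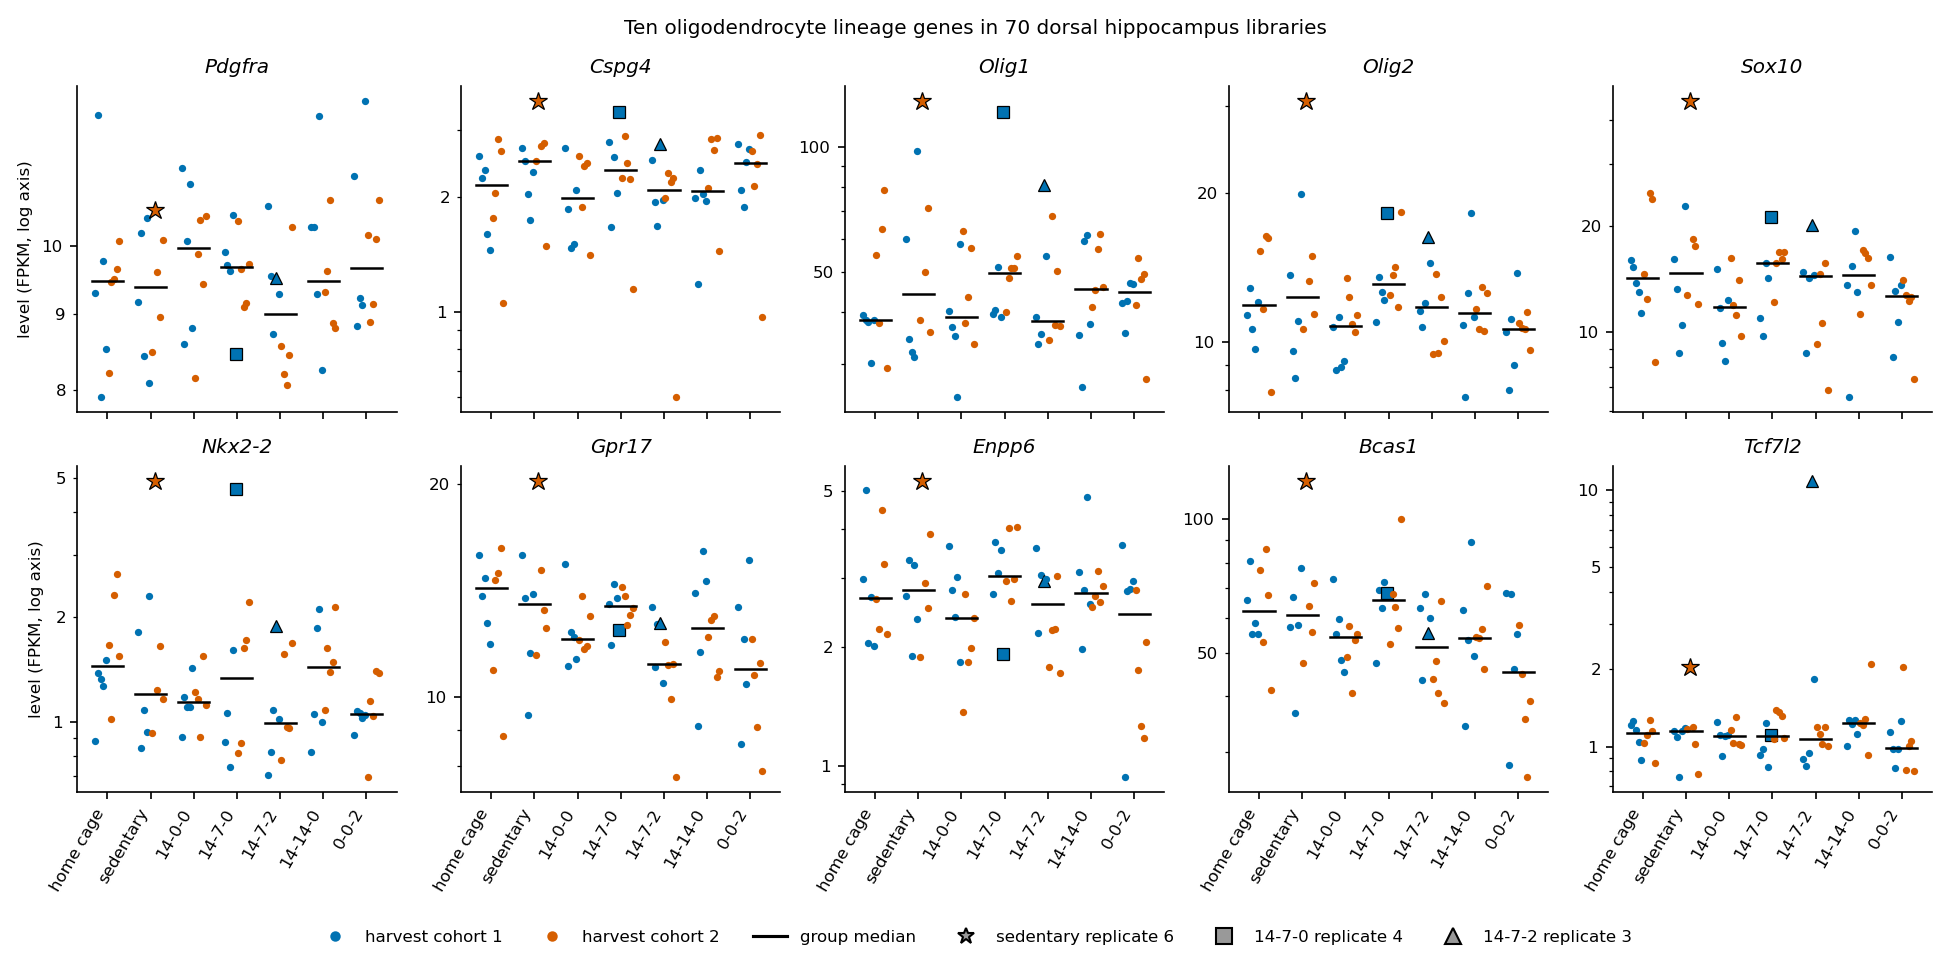
FPKM (log axis) of each of the 10 genes in every library, by group. Points are single libraries coloured by harvest cohort, bars are group medians, and the star, square and triangle mark the 3 libraries that stood apart. Pdgfra stays within 7.91 to 12.54 FPKM, while the star is the highest sedentary point in every panel.

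Pdgfra, the receptor gene by which precursors are usually recognised, was the steadiest of the 10. It spans chr5:75152292-75198215 on the plus strand (GRCm38, as for all positions given), and its longest annotated transcript has 23 exons. Its mean was 9.60 ± 1.02 FPKM (SD, n = 70), and its lowest and highest libraries were at 7.91 and 12.54 FPKM. The lowest, median and highest sedentary values were 8.09, 9.39 and 10.6 FPKM. In 14-0-0 they were 8.15, 9.98 and 11.3 FPKM, and in 0-0-2 they were 8.83, 9.68 and 12.54 FPKM. In 14-7-2, the group with the lowest mean, they were 8.06, 9.01 and 10.6 FPKM. The groups overlapped almost completely, and the group means ran from 9.13 (14-7-2) to 9.997 FPKM (0-0-2), a spread smaller than the SD within most groups. In the 5 exercise comparisons with sedentary the log2 differences of Pdgfra lay between -0.04 (14-7-2) and 0.08 (0-0-2). The 95% interval for 0-0-2 ran from -0.06 to 0.23, and that for 14-0-0 from -0.08 to 0.20.

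Cspg4, which encodes the NG2 proteoglycan of precursors and of pericytes, lies at chr9:56865033-56899870 (plus strand) and was lower and more variable, at 2.19 ± 0.567 FPKM (SD, n = 70). Sedentary values had a lowest of 1.49, a median of 2.49 and a highest of 3.58 FPKM. The same values were 1.41, 1.99 and 2.69 FPKM in 14-0-0 and 0.599, 2.09 and 2.76 FPKM in 14-7-2. Replicate 9 was the lowest library in 6 of the 7 groups, down to 0.599 FPKM in 14-7-2. Its log2 differences from sedentary were -0.25 ± 0.15 (SE) in 14-0-0 (p = 0.114) and -0.30 ± 0.20 in 14-7-2 (p = 0.152), and neither passed the test. Pericytes also make Cspg4. Of the 8 pericyte and smooth muscle genes, 4 rose in 14-14-0, where Cspg4 had a log2 difference of -0.19 (p = 0.26). Their summed level had a median of 50.3 FPKM (39.8 to 61.5) in 14-14-0 and 45.7 FPKM (31.1 to 56.1) in sedentary mice, and Pdgfrb, their defining receptor gene, was at 3.57 to 7.18 FPKM over all libraries. Its part in the Cspg4 values was not tested.

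The sequences just before the start of 4 of these genes are printed because they show the base composition of the pair of precursor genes that varied differently and of Olig2 and Enpp6, which fell together in the comparison of 14-0-0 with 14-7-0. They were taken from RefSeq (GRCm38, the build of the deposited values), which had windows for 6 of the 10 genes, each window here holding the 250 bases before a start site. The stretch printed stops at the end of the window, or where the GENCODE gene begins if that comes first. Capitals mark GGGCGG, read on either strand, the binding motif of SP1-type factors.
Pdgfra, chr5:75152001-75152250, plus strand: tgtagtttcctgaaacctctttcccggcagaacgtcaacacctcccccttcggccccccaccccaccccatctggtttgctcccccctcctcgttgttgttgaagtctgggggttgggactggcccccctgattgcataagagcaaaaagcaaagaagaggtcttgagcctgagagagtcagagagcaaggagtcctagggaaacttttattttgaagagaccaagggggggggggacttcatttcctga
Cspg4, chr9:56864854-56865032, plus strand: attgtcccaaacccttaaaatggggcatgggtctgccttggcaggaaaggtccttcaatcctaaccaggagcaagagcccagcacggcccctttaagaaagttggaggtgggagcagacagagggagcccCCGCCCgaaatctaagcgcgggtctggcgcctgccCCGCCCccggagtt
Olig2, chr16:91225300-91225456, plus strand: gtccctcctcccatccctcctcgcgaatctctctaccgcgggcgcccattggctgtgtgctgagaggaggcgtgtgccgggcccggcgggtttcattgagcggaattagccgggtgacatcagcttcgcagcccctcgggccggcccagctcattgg
Enpp6, chr8:46986637-46986886, plus strand: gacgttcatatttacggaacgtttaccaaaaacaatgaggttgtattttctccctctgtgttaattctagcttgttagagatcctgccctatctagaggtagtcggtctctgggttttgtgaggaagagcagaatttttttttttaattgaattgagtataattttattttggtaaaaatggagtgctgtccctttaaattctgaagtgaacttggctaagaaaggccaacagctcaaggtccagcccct
GGGCGG or its reverse complement was present in 4 of the 7 windows of these genes (Nkx2-2, Cspg4, Olig2 and 1 of the Tcf7l2 windows) and in 32.7% of all 32851 windows of the same length. In Olig2 both matches lay in the last part of the window, past the start of the GENCODE gene and so not printed. CAGCTG, a form of E-box, was in none of the 7 windows and in 13.001% of all windows. TATAAA was in 2 (Olig2 and the other Tcf7l2 window), against 12.4% of all windows, and ACAAAG, a core of SOX motifs, was in 1 (Tcf7l2), against 16.5%. The full window of Enpp6 had a GC content of 38.4%, higher than 9.05% of windows, and that of Olig2 had 66.8%, higher than 85.8% of windows.

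Olig1 and Olig2 lie near each other on chromosome 16 (GRCm38, chr16:91269772-91271933 and chr16:91225457-91228677, both on the plus strand). Olig1 was the more abundant, at 48.1 ± 19.0 FPKM (SD, n = 70) against 12.3 ± 3.39 FPKM for Olig2. Olig1 had a lowest of 31.2, a median of 44.1 and a highest of 129 FPKM in sedentary mice. In 14-0-0 the values were 24.96, 38.9 and 62.8 FPKM, and in 0-0-2 they were 27.5, 44.6 and 54.0 FPKM. The medians differed little, and the upper sedentary values reached far above those of either exercise group. Without replicate 6 the highest sedentary Olig1 value was 97.5 FPKM and the sedentary mean went from 57.9 to 50.01 FPKM. No comparison called Olig1, and its log2 difference from sedentary was -0.31 ± 0.25 (SE) in 14-0-0 (p = 0.228).

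Olig2 had a lowest of 8.48, a median of 12.3 and a highest of 30.7 FPKM in sedentary mice. In 14-0-0 the values were 8.78, 10.8 and 13.4 FPKM, and in 0-0-2 they were 8.03, 10.7 and 13.8 FPKM. In 14-7-0 they were 10.98, 13.1 and 18.4 FPKM, so that the lowest 14-7-0 library stood above the 14-0-0 median. Group means ran from 10.6 ± 1.56 (0-0-2) and 10.7 ± 1.5002 (14-0-0) to 13.8 ± 2.55 (14-7-0) and 14.4 ± 6.59 FPKM (sedentary; SD, n = 10 each). Against sedentary, Olig2 had log2 differences of -0.33 ± 0.17 (SE, p = 0.0756) in 14-0-0 and -0.35 ± 0.18 (p = 0.0614) in 0-0-2, and neither passed the test.

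Sox10 (chr15:79154908-79165240, minus strand), the factor that turns on many myelin genes, had a lowest of 8.72, a median of 14.7 and a highest of 45.3 FPKM in sedentary mice. In 14-0-0 the values were 8.31, 11.8 and 16.3 FPKM, and in 14-7-0 they were 9.78, 15.7 and 21.2 FPKM. The highest value of the study was again sedentary replicate 6, and the next sedentary library was at 22.7 FPKM. Nkx2-2 (chr2:147177546-147194243, minus strand), a factor of the step from precursor to oligodendrocyte, was scarce, at 1.39 ± 0.728 FPKM (SD, n = 70). Its sedentary median was 1.1999 FPKM and its 14-7-0 median 1.33 FPKM, and single libraries at 4.91 (sedentary replicate 6) and 4.65 FPKM (14-7-0 replicate 4) gave those groups SDs of 1.22 and 1.17 FPKM. In 0-0-2 and 14-0-0, where no library exceeded 1.54 FPKM, the SDs were 0.204 and 0.200 FPKM. The log2 differences of Sox10 from sedentary were -0.43 ± 0.22 (SE, p = 0.0653) in 14-0-0 and -0.42 ± 0.22 (p = 0.0776) in 0-0-2, and for Nkx2-2 the lowest p among the exercise comparisons was 0.093 (0-0-2, -0.42 ± 0.24).

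Gpr17 (chr18:31942997-31949636, minus strand), a receptor gene that is on only for the time between precursor and myelinating cell, was at 12.6 ± 2.19 FPKM (SD, n = 70). Sedentary values had a lowest of 9.43, a median of 13.6 and a highest of 20.2 FPKM. They were 7.71, 11.1 and 13.4 FPKM in 14-7-2, and 7.86, 10.95 and 15.6 FPKM in 0-0-2. In 14-7-0 they were 11.8, 13.5 and 14.5 FPKM, so that the 14-7-2 median stood below the lowest 14-7-0 library. Gpr17 fell in 14-7-2 against sedentary by 0.27 on the log2 scale (SE 0.11, p = 0.0264, adjusted p = 0.847) and in 0-0-2 against sedentary by 0.30 (SE 0.13, p = 0.0284, adjusted p = 1). Without sedentary replicate 6 neither passed, with log2 differences of -0.21 (p = 0.0521) and -0.24 (p = 0.0579).

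Enpp6 (chr8:46986887-47096762, plus strand), an early differentiation enzyme gene, and Bcas1 (chr2:170346991-170427845, minus strand), a gene of the cells that are starting to make myelin, were at 2.75 ± 0.856 and 58.1 ± 16.0 FPKM (SD, n = 70). Bcas1 had a lowest of 36.8, a median of 61.0 and a highest of 122 FPKM in sedentary mice, and 26.3, 45.5 and 68.5 FPKM in 0-0-2. Without replicate 6 the highest sedentary Bcas1 value was 77.7 FPKM. Across libraries Bcas1 followed the mean of the mature myelin genes at r = 0.95 (group means removed). Its differences can therefore not be assigned to newly forming oligodendrocytes alone. In 14-7-0 the Bcas1 values were 47.6, 65.7 and 100 FPKM, and in 14-7-2 they were 38.7, 51.7 and 67.9 FPKM. Bcas1 fell in 0-0-2 against sedentary by 0.49 on the log2 scale (SE 0.20, 95% interval -0.91 to -0.07, p = 0.0237, adjusted p = 1), and by 0.38 without sedentary replicate 6 (p = 0.048). Enpp6 had a lowest of 1.89, a median of 2.81 and a highest of 5.31 FPKM in sedentary mice and 0.937, 2.42 and 3.65 FPKM in 0-0-2, a log2 difference of -0.47 ± 0.23 (p = 0.0555) that missed the test.

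Tcf7l2 (chr19:55741820-55933654, plus strand), a Wnt-pathway transcription factor of differentiating oligodendrocytes that thalamic neurons also express, was at 1.28 FPKM on average with a median of 1.11 FPKM over 70 libraries. The highest sedentary Tcf7l2 value, 2.04 FPKM, was in sedentary replicate 6, where Slc17a6 was at 10.6 FPKM. One library decided the spread of Tcf7l2. In 14-7-2 replicate 3 it reached 10.9 FPKM, and the next 14-7-2 library was at 1.84 FPKM. The same library listed Slc17a6 at 12.3 FPKM, the highest of all libraries, with Tnnt1 at 7.64 FPKM and Lef1 at 4.63 FPKM, also the highest of all. The 9 thalamic genes tested were above the median of the other 14-7-2 libraries there by a median of 1.97 on the log2 scale. The log2 difference of Tcf7l2 between 14-7-2 and sedentary was 0.29 ± 0.33 (SE, p = 0.402) with that library and -0.03 ± 0.15 (p = 0.824) without it.

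**Figure D2:**
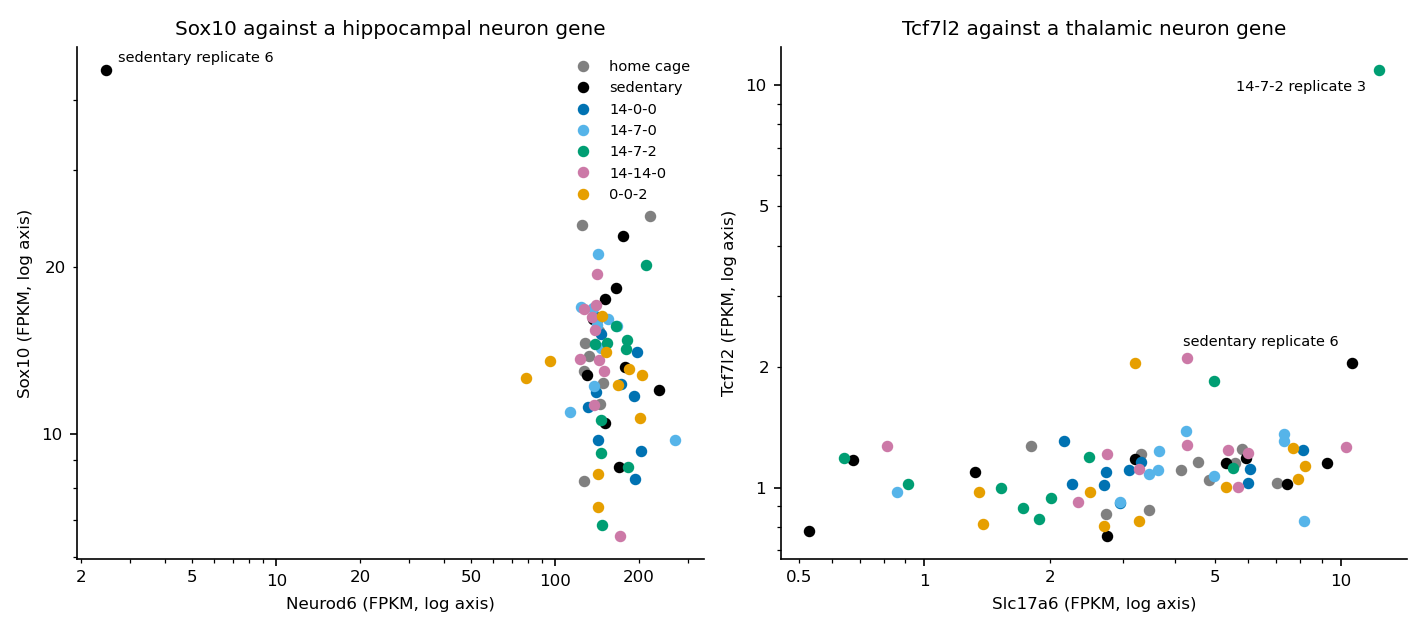
Left, Sox10 against Neurod6, and right, Tcf7l2 against Slc17a6, in FPKM on log axes, with each of 70 libraries as a point coloured by group. Sedentary replicate 6 lies alone at 2.45 FPKM of Neurod6 with the highest Sox10, and 14-7-2 replicate 3 lies alone at the highest Slc17a6 and Tcf7l2.

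The comparisons with sedentary asked whether an exercise pattern moved these genes as a group. A gene was called at an unadjusted p under 0.05 by limma, the criterion the study used, and all 6 comparisons share the same sedentary libraries. None of the 10 rose in any comparison. After 14 days of running (14-0-0) 0 of 10 were called, against 9.15% of all genes tested, and 9 of the 10 were lower, with a median log2 difference of -0.27 against 0.01 over all genes. In 14-7-0 0 were called (3.26% of all genes) and the median of the 10 was -0.01. In 14-7-2 1 was called, Gpr17 (4.39% of all genes), and the median was -0.23. In 14-14-0 0 were called (4.95% of all genes), with a median of -0.15. In 0-0-2 2 were called, Gpr17 and Bcas1 (2.37% of all genes), with a median of -0.33. In home cage mice, which had no training, 0 were called (2.3% of all genes), with a median of -0.03. After adjustment no gene of the 12994 passed in any of these comparisons, and the smallest adjusted p (Benjamini-Hochberg over all genes tested) was 0.279, in 14-0-0.

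Part of these differences rested on sedentary replicate 6. Without it the medians of the 10 genes were -0.15 (14-0-0), 0.10 (14-7-0), -0.13 (14-7-2), -0.03 (14-14-0), -0.22 (0-0-2) and 0.05 (home cage). In 14-7-0 9 of the 10 were then higher than sedentary, where 6 of 10 had been lower with it. None was called there, against 3.29% of all genes. In 0-0-2 8 of the 10 stayed lower and 1, Bcas1, was called, against 2.52% of all genes. Without 14-7-2 replicate 3 all 10 were lower in 14-7-2 than in sedentary mice, with a median of -0.29. Gpr17 alone was then called, against 4.78% of all genes.

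**Figure D3:**
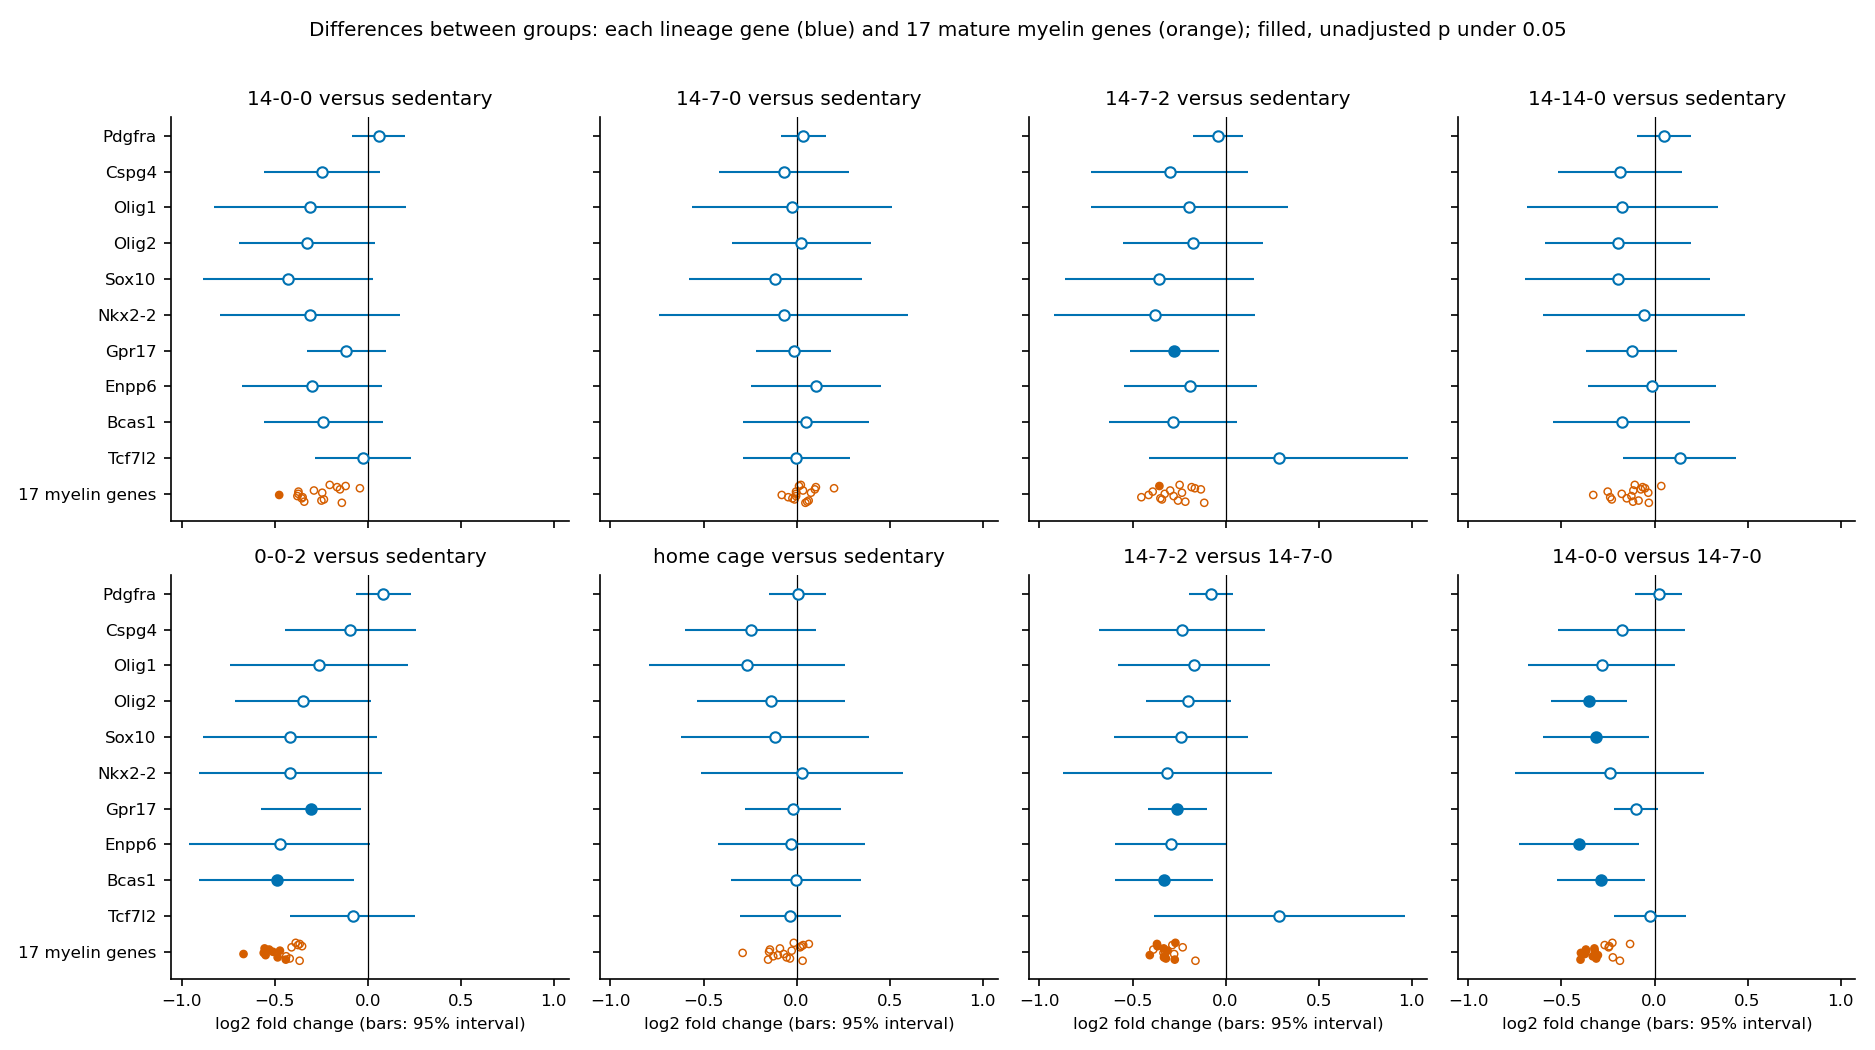
Log2 difference (on log2 of FPKM + 0.1) of each of the 10 genes in 8 comparisons, with 95% intervals in blue, and of the 17 mature myelin genes as orange points in the bottom row. Filled points passed an unadjusted p under 0.05. The blue points lie mostly left of 0 beside the orange ones, Pdgfra lies near 0 in every panel, and no blue point that is filled lies to the right.

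The comparisons of exercise groups with one another did not involve sedentary mice, and they share the 14-7-0 libraries. They ask what changed when running had just ended (14-0-0) or was taken up again (14-7-2) against a week of rest after running (14-7-0). In 14-0-0 against 14-7-0 4 of the 10 were called, all lower, against 5.63% of all genes. Olig2 fell by 0.35 on the log2 scale (SE 0.10, p = 0.00175), Enpp6 by 0.40 (SE 0.16, p = 0.0168), Bcas1 by 0.29 (SE 0.11, p = 0.019) and Sox10 by 0.31 (SE 0.14, p = 0.0317). Their adjusted p lay between 0.721 and 0.804. The Enpp6 values were 1.37, 2.38 and 3.62 FPKM (lowest, median and highest) in 14-0-0 and 1.93, 3.04 and 4.05 FPKM in 14-7-0, so the groups overlapped. Without 14-7-0 replicate 4, Sox10 had a log2 difference of -0.25 (p = 0.0654) and was no longer called, while Olig2, Enpp6 and Bcas1 were, against 5.85% of all genes.

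In 14-7-2 against 14-7-0 2 of the 10 were called, against 5.39% of all genes. Gpr17 fell by 0.26 on the log2 scale (SE 0.08, 95% interval -0.42 to -0.10, p = 0.00306, adjusted p = 0.509) and Bcas1 by 0.33 (SE 0.13, p = 0.0169, adjusted p = 0.743). Enpp6 had a log2 difference of -0.29 ± 0.14 (SE, p = 0.0544). Without 14-7-2 replicate 3 the count was 4, with Olig2 (-0.25, p = 0.0255) and Enpp6 (-0.32, p = 0.0463) added, against 5.15% of all genes, and without 14-7-0 replicate 4 it was 3, with Enpp6 (-0.37, p = 0.0118) added, against 5.77% of all genes. Whether Gpr17 differed between the 2 comparisons with 14-7-0 was not tested. In 14-0-0 against 14-7-0 its log2 difference was -0.10 ± 0.06 (SE, p = 0.0978).

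Markers of other cells moved in these comparisons. All 10 choroid plexus genes rose in 14-0-0 against 14-7-0, by a median of 2.10 on the log2 scale, and in 14-0-0 and 14-14-0 against sedentary. The secreted carrier gene Ttr rose by 3.80 ± 1.10 (SE, p = 0.00246) in 14-0-0 against sedentary. The summed level of the 10 choroid plexus genes had a median of 2676 FPKM (92.9 to 18331) in 14-0-0, 169 FPKM (103 to 2447) in 14-7-0 and 155 FPKM (75.6 to 506) in sedentary mice. In 14-7-2 it was 169 FPKM (88.7 to 3431), and none of the 10 was called against 14-7-0. Of the 7 meningeal genes tested, 5 rose in 14-0-0 against sedentary and 1 (Igf2) in 14-0-0 against 14-7-0, and Col1a1 lay between 0.354 and 3.38 FPKM over all libraries. In home cage against sedentary mice 4 choroid plexus and 5 meningeal genes rose. In 14-7-2 against 14-7-0 2 of 8 pericyte genes, 3 of 7 inhibitory neuron genes and 2 of 8 microglial genes fell, as did Wfs1 of the hippocampal neuron genes (-0.55, p = 0.00378), Pecam1 of the endothelial genes (-0.21, p = 0.00636) and Slc1a3 of the astrocyte genes (-0.14, p = 0.00935). In 14-0-0 against 14-7-0 the microglial gene Csf1r (-0.16, p = 0.00821) and the thalamic gene Plekhg1 (-0.28, p = 0.0204) fell. In any comparison with sedentary at most 2 of 8 astrocyte, 1 of 8 microglial, 1 of 6 endothelial and 1 of 9 thalamic genes were called, and none of the 10 hippocampal or 7 inhibitory neuron genes. Though none was called, the 10 hippocampal neuron genes were mostly higher than in sedentary mice, 8 to 10 of them in each comparison. Their medians were 0.48 (14-0-0), 0.44 (14-7-0), 0.56 (14-7-2), 0.39 (14-14-0), 0.36 (0-0-2) and 0.39 (home cage). Sedentary replicate 6 is part of these values, and its median for the 10 was -5.17 against the other sedentary libraries. The part of RNA from the cells of these lists in the lineage gene values was not tested.

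All 17 mature myelin genes were lower in both comparisons with 14-7-0 and in 0-0-2 against sedentary, and in each of these 9 of the 10 lineage genes were lower. The exceptions were Pdgfra in 14-0-0 against 14-7-0 and in 0-0-2 against sedentary, and Tcf7l2 in 14-7-2 against 14-7-0. All 17 were also lower in 14-0-0 (median -0.25) and in 14-7-2 (median -0.28) against sedentary. There too 9 of the 10 lineage genes were lower, all but Pdgfra in 14-0-0 and all but Tcf7l2 in 14-7-2. Without sedentary replicate 6 the myelin medians of these 2 comparisons were -0.13 and -0.15. Of the 17, 10 fell and none rose in 14-0-0 against 14-7-0 (median -0.31), where the structural gene Mbp fell by 0.37 (SE 0.11, p = 0.00353) and the adhesion gene Mag by 0.37 (SE 0.10, p = 0.00161). In 14-7-2 against 14-7-0 10 fell (median -0.32), and without 14-7-0 replicate 4 this count was 4, and without 14-7-2 replicate 3 it was 13. In 0-0-2 against sedentary 9 fell and all 17 were lower (median -0.44), with Mobp lower by a log2 difference of -0.55 ± 0.22 (SE, p = 0.0199). Without sedentary replicate 6 this count was 3 and the median -0.30.

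Whether the lineage genes moved apart from myelin was tested on log2 values taken relative to the mean of the 17 myelin genes in the same library, a scale added after the data were seen. In 0-0-2 against sedentary 1 of the 10 was called, Pdgfra, higher by 0.55 ± 0.21 (SE, p = 0.0131) relative to myelin, against 36.3% of all genes. In 14-0-0 against 14-7-0 Pdgfra was again the 1 called, higher by 0.32 ± 0.11 (p = 0.00973), against 55% of all genes. In 14-7-2 against 14-7-0 0 were called, against 35.8% of all genes. Nearly all genes called on this scale were higher, with medians over all genes of 0.47, 0.30 and 0.32 in the same order, so the shares called among the 10 lie below those of the genes at large. Relative to myelin the differences of Bcas1 in these comparisons lay between -0.03 and 0.01, and those of Enpp6 between -0.11 and 0.02.

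Other genes of the pathway were examined in lists chosen by function, with all libraries kept. In sedentary replicate 6 the further precursor genes lay -1.15 to 1.545 from the median of the other sedentary libraries (log2). The further newly forming genes lay -1.56 to 2.57 from it, and the growth factors and receptors -4.03 to 1.96. The part of this library in the differences from sedentary below was not tested. Of 13 further precursor genes tested, none rose in a group comparison. Sox8, a partner of SOX10, fell in 14-0-0 against sedentary by 0.35 (SE 0.13, p = 0.0132) and in 0-0-2 by 0.32 (SE 0.14, p = 0.0371). In 14-0-0 against 14-7-0 Sox8 was the 1 of 13 that fell, by 0.26 (SE 0.06, p = 0.000562). Sox8 was also lower in 14-7-2, by a log2 difference of -0.29 against sedentary (SE 0.14, p = 0.0489) and -0.21 against 14-7-0 (SE 0.08, p = 0.0227). Sox6, which holds precursors undifferentiated, fell in 14-7-2 by 0.23 against sedentary (SE 0.07, p = 0.00491) and by 0.17 against 14-7-0 (SE 0.06, p = 0.0156). The sialidase gene Neu4 fell by 0.20 in 14-14-0 (SE 0.07, p = 0.0127) and by 0.23 in 0-0-2 against sedentary (SE 0.10, p = 0.0328).

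Of 12 further genes of newly forming oligodendrocytes, 3 fell in 14-0-0 against 14-7-0. They were the noncoding RNA 9630013A20Rik (-0.73 ± 0.18 SE, p = 0.000805), Myrf, the factor that starts the myelin programme (-0.37 ± 0.11, p = 0.00282), and the deacetylase gene Sirt2 (-0.28 ± 0.08, p = 0.00306). In 14-7-2 against 14-7-0 3 also fell, namely Bmp4 (-0.45 ± 0.13, p = 0.00269), 9630013A20Rik (-0.50 ± 0.15, p = 0.00312) and Tns3 (-0.16 ± 0.05, p = 0.00548). 9630013A20Rik rose in 14-7-0 against sedentary by 0.54 (SE 0.14, p = 0.0011), the 1 of the 12 called there. Myrf fell in 14-0-0 (-0.45 ± 0.16, p = 0.00935) and in 0-0-2 against sedentary (-0.53 ± 0.19, p = 0.011). Bmp4, a signal that holds back differentiation, rose in home cage against sedentary mice by 0.35 (SE 0.14, p = 0.0242) and fell in 14-7-2 by 0.28 (SE 0.13, p = 0.0438).

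Among 14 growth factors and receptors that act on precursors, Erbb3, a neuregulin receptor gene, fell in 14-0-0 (-0.40 ± 0.17 SE, p = 0.0268) and in 0-0-2 against sedentary (-0.46 ± 0.19, p = 0.0263), and in 14-0-0 against 14-7-0 (-0.29 ± 0.12, p = 0.0221). Bdnf, a neurotrophin gene, rose in 14-0-0 against 14-7-0 by 0.25 (SE 0.10, p = 0.018). Fgfr2 fell in 14-7-2 against sedentary by 0.28 (SE 0.13, p = 0.0431). Of 8 cell cycle genes 4 reached the minimum level. Among those 4, Ccnd1, a cyclin gene of the start of the cell cycle, fell in 14-7-2 (-0.40 ± 0.11 SE, p = 0.00103) and in 14-0-0 (-0.28 ± 0.09, p = 0.00647) against 14-7-0, and none was called against sedentary.

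The 10 genes did not all vary together from library to library. Correlations were taken on log2 values over 70 libraries with the group means removed, and are given as a description, since libraries share batches, dissection and base composition. Olig1, Olig2 and Sox10 formed a tight set (Pearson r = 0.83 for Olig1 with Sox10, 0.81 for Olig2 with Sox10 and 0.80 for Olig1 with Olig2). Enpp6 and Bcas1 formed another (r = 0.82), and Bcas1 followed the mean of the 17 myelin genes at r = 0.95 and Enpp6 at r = 0.85. Pdgfra was nearly unrelated to Sox10 (r = -0.01) and to Cspg4 (r = -0.12), and was nearest to Enpp6 (r = 0.59). Olig1 and Enpp6 had r = 0.08, and Olig1 had 0.48 with the myelin mean. The 2 sets were not separate, since Olig2 and Sox10 each had r = 0.73 with the myelin mean and 0.67 with Bcas1. Sox10 had r = 0.87 with Mbp, and Gpr17 had 0.69 with Sox10 and 0.78 with Mbp.

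**Figure D4:**
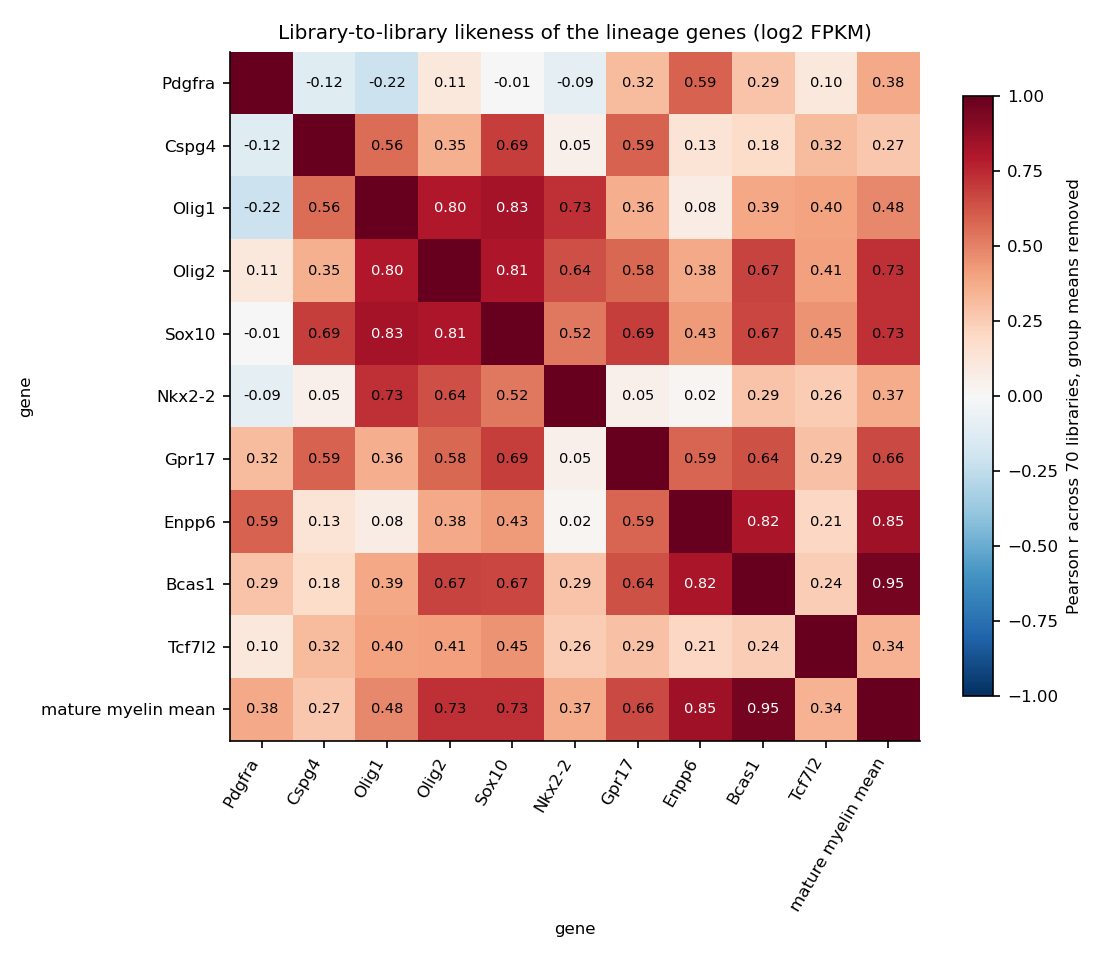
Pearson r between each pair of the 10 genes and the mean of the 17 mature myelin genes, across 70 libraries on log2 values with group means removed (colour from -1 to 1, values printed). The transcription factors Olig1, Olig2 and Sox10 form one dark block at 0.80 to 0.83, Enpp6, Bcas1 and the myelin mean another at 0.82 to 0.95, and Pdgfra is pale against the factors. Olig2 and Sox10 are each at 0.73 with the myelin mean.

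Over all genes tested, those nearest to Bcas1 were Plekhb1 (r = 0.94), Mobp (0.94) and Cnp (0.93), the last pair being myelin genes. Enpp6 was nearest to Lpar1 (0.93), Plekhh1 (0.91) and Ermn (0.91). Sox10 was nearest to Sirt2 (0.93), Frmd8 (0.92) and Gal3st1 (0.92), and Gpr17 to Sema4d (0.84), Cntn2 (0.84) and Zcchc24 (0.83). For Olig2 they were Slain1, Dusp26 and Gltp (each 0.84). Cspg4 was nearest to Apc2 (0.94), Fasn (0.94) and Vps18 (0.93), and Olig1 to Vgf (0.89), Ppp2r5b (0.89) and Ccdc184 (0.88). Nkx2-2 was nearest to Ndufa6 (0.75), Olig1 (0.73) and Pam16 (0.72), and without the 3 libraries that stood apart these were 0.73, 0.60 and 0.63. Pdgfra was nearest to Scarb2, Dock1 and Tbl1x (each 0.76). Tcf7l2 was nearest to Rgs16 (0.78), Ramp3 (0.63) and Ccdc136 (0.63), and without the 3 libraries that stood apart these were 0.49, 0.42 and 0.32.

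The base composition of the transcripts moved with part of this pattern. A GC tilt was computed for each library as the median log2 deviation of the 2503 genes with the most GC-rich transcripts minus that of the 2503 with the least GC-rich ones. It ran from -0.89 (14-7-2 replicate 9) to 0.75 (sedentary replicate 4), and its group means ran from -0.07 (14-0-0) to 0.12 (sedentary). The longest transcripts of Sox10, Olig1, Cspg4 and Olig2 have a GC content of 61.8%, 61.1%, 59.2% and 58.5%, above the 55.6% at which the GC-rich set begins. Nkx2-2 lies just above that limit, at 55.66%, and Enpp6 has 42.3%. Across 70 libraries the tilt had r = 0.78 with Cspg4 (Spearman rho 0.73), 0.73 with Sox10 (0.67) and 0.72 with Olig1 (0.73). It was 0.54 with Olig2 (0.47), 0.43 with Gpr17 (0.25) and 0.29 with Tcf7l2 (0.38). With Nkx2-2 it was 0.27 (0.19) and with Bcas1 0.17 (0.06). With Enpp6 r was -0.09 (rho -0.13) and with Pdgfra -0.34 (-0.33). Leaving out the 2 libraries farthest from the median tilt gave r = 0.77 for Cspg4, 0.69 for Sox10 and 0.73 for Olig1. Within harvest cohorts 1 and 2 the Cspg4 values were 0.65 and 0.89, and the Gpr17 values were 0.35 and 0.55.

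**Figure D5:**
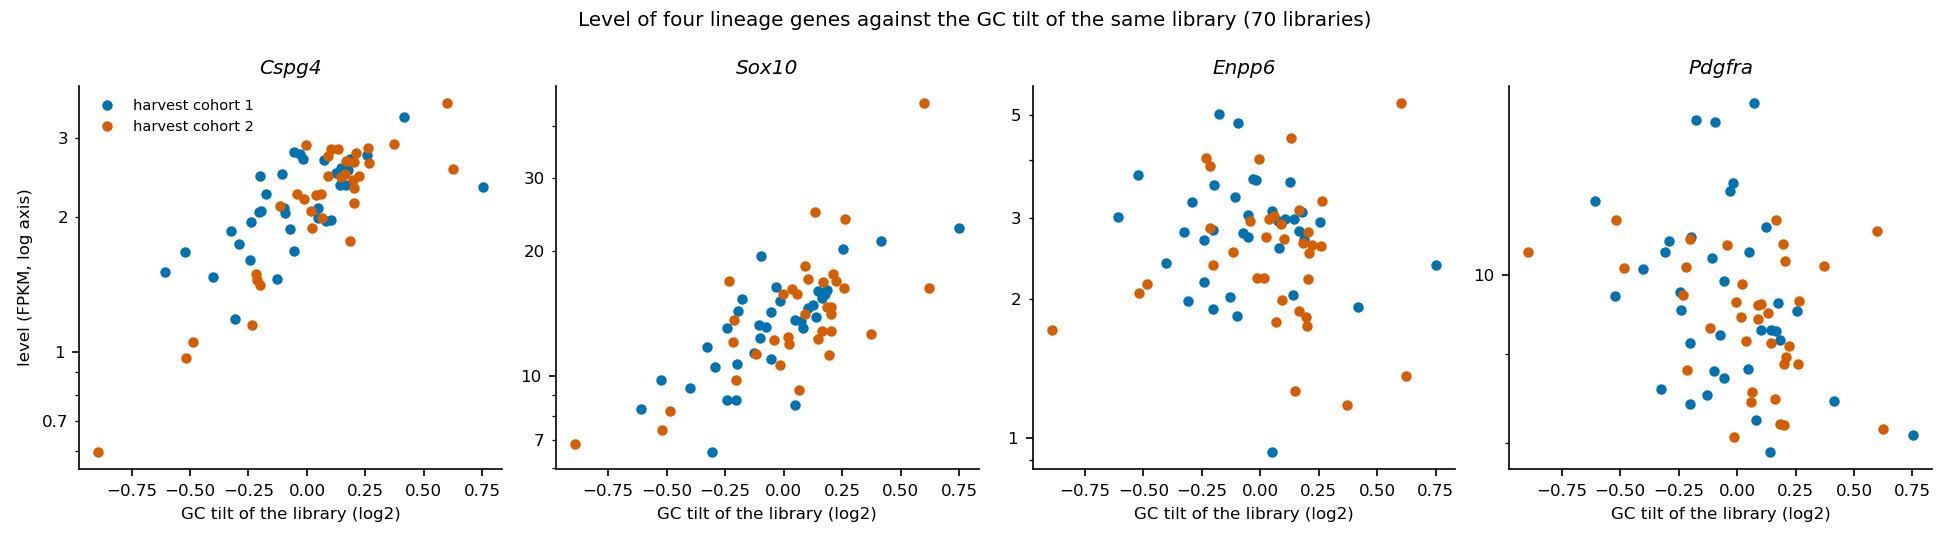
FPKM (log axis) of Cspg4, Sox10, Enpp6 and Pdgfra against the GC tilt of the same library (log2), with 70 libraries coloured by harvest cohort. Cspg4 and Sox10 climb with the tilt (r = 0.78 and 0.73), while Enpp6 and Pdgfra show no climb (r = -0.09 and -0.34).

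With the tilt as a covariate, a setting added after the data were seen, the calls of the group comparisons were the same genes. In 14-0-0 against 14-7-0 Enpp6 had a log2 difference of -0.45 ± 0.11 (SE, p = 0.000911), Sox10 of -0.27 ± 0.09 (p = 0.00694) and Olig2 of -0.34 ± 0.09 (p = 0.00139). The difference of Olig1 between 14-0-0 and sedentary went from -0.31 to -0.03 and that of Sox10 from -0.43 to -0.20.

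Between the harvest cohorts none of the 10 was called, against 11.9% of all genes, with all groups in 1 fit. The smallest p was that of Olig1, higher in cohort 2 by 0.16 ± 0.11 (SE, p = 0.146). Means were 50.4 ± 18.2 FPKM in cohort 2 and 45.8 ± 19.7 FPKM in cohort 1 (SD, n = 35 each). The effects of exercise were then set side by side in each cohort. In 0-0-2 against sedentary Bcas1 had a log2 difference of -0.19 (p = 0.492) in cohort 1 and -0.79 (p = 0.015) in cohort 2, which holds sedentary replicate 6. Gpr17 had -0.11 (p = 0.547) and -0.50 (p = 0.0155). In 14-7-2 against sedentary Gpr17 had -0.08 (p = 0.564) in cohort 1 and -0.47 (p = 0.0204) in cohort 2. None of 60 tests of the difference between cohorts passed an unadjusted p under 0.05, and the smallest p was 0.0655 (Enpp6, 14-7-2 against sedentary).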

How the data were processed

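RNA was taken from the dorsal hippocampus of 70 mice and sequenced from poly-A libraries as single reads of 50 bp. The authors kept uniquely aligned reads with at most 2 mismatches and deposited FPKM per gene, and the submitters' processing notes name Bowtie, Cuffnorm and mm10. FPKM values keep no read counts. The study lists total reads under lane and barcode names that the labels do not carry, so depth could not be tied to a library and no counting error is given. Groups and harvest cohorts came from the labels, with 10 libraries per group. Values were tested as log2(FPKM + 0.1) with limma 3.58.1 in R 4.3.3 (empirical Bayes with a trend) on the 20 libraries of each comparison, for genes averaging 1 FPKM or more over all libraries. On this scale the change of a low gene is understated. The call threshold was the study's own, p = 0.05 with no adjustment, and adjusted p is Benjamini-Hochberg over all 12994 genes tested. All p are two-sided. Each library is a separate labelled sample, and p-values measure the spread between these samples.

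All 10 genes are named in every comparison, and from each other list up to 3 called genes of smallest p. Markers of other cells (choroid plexus, meninges, pericytes, thalamus, hippocampal and inhibitory neurons, astrocytes, microglia, endothelium) were counted the same way. Igf2, Tnnt1 and Lef1, and the Mobp and Mag values, were picked out after their values were seen. The members and lists were chosen with earlier results of these data known. The alternatives were the pseudocount, the minimum mean, median ratio scaling, quantile normalization, cohort as covariate, a replicate block, a joint fit, each cohort alone and each library left out. The GC tilt covariate, leaving out libraries in the comparisons with 14-7-0 or between cohorts, and values relative to myelin were added after the data were seen. The fit was tested on simulated data. Positions and transcripts are GENCODE M21 on GRCm38, the mm10 build.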

Additional observations from a re-analysis of the deposited data

Results flagged for a closer look

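Dixon's 95% limit is passed by about 1 in 20 sets of independent, normally spread values. It was applied to FPKM without logs, and the genes share libraries, so a count cannot be read against that rate. In 16 of 70 sets of 10 libraries (a gene in a group) the highest or lowest library stood apart by this limit. Of these, 5 were in the library labelled sedentary replicate 6, with Olig2 at 30.7, Sox10 at 45.3, Nkx2-2 at 4.91, Bcas1 at 122 and Tcf7l2 at 2.04 FPKM. In that library Neurod6 was at 2.45 FPKM. Another 2 were in 14-7-0 replicate 4, with Olig1 at 121 and Nkx2-2 at 4.65 FPKM, the library with the most genes listed at 0. In 14-7-2 replicate 3 Tcf7l2 stood apart at 10.9 FPKM, with Slc17a6 at 12.3 FPKM.

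Cspg4 stood apart at the low end in 14-7-2 replicate 9 (0.599 FPKM) and in 0-0-2 replicate 9 (0.971 FPKM). In 14-14-0 replicate 3 Olig2 was at 18.3 and Enpp6 at 4.82 FPKM. Bcas1 stood apart at 100.1 FPKM in 14-7-0 replicate 9 and Pdgfra at 12.3 FPKM in home cage replicate 1. Tcf7l2 stood apart at 2.10 FPKM in 14-14-0 replicate 9 and at 2.05 FPKM in 0-0-2 replicate 5. The causes were not tested.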

How the results depend on the processing

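No called difference changed sign. Over all 10 genes, called or not, the sign changed in 61 of 904 values under the other alternatives (23 in harvest cohort 1 alone, 19 with the GC tilt) and in 27 of 880 with 1 library left out (15 without sedentary replicate 6). The counts of the 10 genes called stayed at 0 in 14-7-0 and 14-14-0 against sedentary under all 11 alternatives. With a replicate block the counts called were 3 in 14-0-0 (Cspg4, Sox10, Enpp6), 2 in 14-7-2, 4 in 0-0-2 and 1 in home cage (Cspg4) against sedentary, where they were 0, 1, 2 and 0 without it. The shares of all genes called with the block were 14.5%, 5.87%, 2.78% and 4.33%. The numbers were not taken to pair the libraries, since not every same-numbered pair correlated above 0.1 (range -0.40 to 0.50, at most 7 of 10 pairs in a comparison, and at most 4 of 10 best with their own number). They were not without shared signal, as the GC tilt of replicate 9 was negative in all 7 groups (-0.89 to -0.20) and that of replicate 8 positive in all 7 (0.04 to 0.37). With all 7 groups fitted together the counts were 2 in 14-0-0 (Olig2, Sox10) and 5 in 0-0-2 against sedentary, and 2 in 14-0-0 against 14-7-0 (Olig2, Enpp6), against 11.9%, 3.89% and 6.08% of all genes. In harvest cohort 1 alone they were 0 in 14-7-2 and 0 in 0-0-2 against sedentary, 0 in 14-7-2 against 14-7-0 and 1 in 14-0-0 against 14-7-0 (Olig2), against 1.89%, 1.36%, 4.17% and 3.65% of all genes. In harvest cohort 2 alone they were 2, 3, 5 and 2 in the same order, against 4.23%, 2.72%, 5.20% and 4.79%. With the GC tilt as covariate 1 gene, Gpr17, was called between cohorts, against 14.8% of all genes. Leaving out 1 library gave 0 to 2 in 14-7-2 and 1 to 5 in 0-0-2 against sedentary, 2 to 4 in 14-7-2 and 3 to 5 in 14-0-0 against 14-7-0, and 0 to 1 between cohorts. With all libraries kept, the shares of all genes called were 4.39%, 2.37%, 5.39%, 5.63% and 11.9% in the same order. Without sedentary replicate 6 the shares were 3.58% in 14-7-2 and 2.52% in 0-0-2 against sedentary. The count of 14-7-2 was 0 without sedentary replicate 6 or 14-7-2 replicate 9 and 2 without sedentary replicate 2. That of 0-0-2 was 1 without sedentary replicates 0 or 6 or 0-0-2 replicates 1, 7, 8 or 9, and 5 without sedentary replicate 2. Nkx2-2 was called between cohorts without 14-7-0 replicate 4 (0.23, p = 0.0414). The causes were not tested. Read depth could not be tied to the libraries, so its limit on the low genes Nkx2-2, Tcf7l2 and Cspg4 is not given.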
